A study of Mus musculus with 9 samples.

Results

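Interferon-response genes were examined in hearts of C57BL/6 mice as a set of 39 listed genes, chosen by symbol from knowledge of the pathway. The choice was made with earlier results of these data known, so shares of members set beside shares of all genes are descriptive. Of the 39 genes, 37 had a row in the deposited table of 16951 genes. The antiviral GTPase genes Mx1 and Mx2 matched no row and are not analysed here. Of the 37 genes, 28 are induced mainly by type I interferon, 7 are GTPases induced mainly by interferon-gamma, and Irf1 and Tap1 respond to both and were kept apart. All 37 reached 1 FPKM in at least 3 libraries and were tested, as were 11902 genes of the whole table. FPKM counts sequenced fragments relative to transcript length and to the size of the library, so that levels are comparable between genes per unit of length.

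The study measured messenger RNA of heart tissue by single-end sequencing of 50-base reads, in 3 groups of 3 libraries. Mice of the strain C57BL/6 received saline, angiotensin II (AngII, which raises blood pressure and enlarges the heart), or AngII together with prostaglandin E1 (PGE1, a vasodilator prostanoid). No genotype other than the strain was given, and every AngII+PGE1 library carries AngII as well, so that PGE1 was not measured alone. Dose, route, duration and age are not given in the sources used here, nor whether each library is a separate animal. The p-values therefore reflect only the spread among these 9 libraries, which may be technical. The libraries are numbered 1 to 3 within a group by the order of their columns, and these numbers pair nothing.

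Type I interferons act through the receptor chains IFNAR1 and IFNAR2 and a complex containing STAT2 and IRF9 that binds the interferon-stimulated response element (ISRE) of antiviral genes. Interferon-gamma, made mainly by lymphocytes, acts through IFNGR1 and IFNGR2 on genes with a gamma-activated site (GAS), and it strongly induces the immunity-related GTPases and the guanylate-binding proteins, which attack the vacuoles of intracellular pathogens. In the heart, these genes are known to be raised by viral myocarditis and by injury. In bulk tissue, fewer cells of a type and less RNA per cell cannot be told apart.

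The libraries did not separate cleanly by treatment. Genes at 1 FPKM or more numbered 11049 to 11970 per library. The first principal component over all genes tested held 62.3% of the variance, and on it saline 2 (16.3) and AngII+PGE1 1 (12.4) lay on the side of the 3 AngII libraries (33.4 to 41.1), away from the other saline and AngII+PGE1 libraries (-38.6 to -26.4). Counts of calls, class medians and the GTPase differences in AngII+PGE1 are therefore given with and without these libraries. The 6 cardiomyocyte markers summed to between 32777 and 43218 FPKM in every library, as the label heart requires.

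AngII hearts differed from saline hearts in 7 type I induced genes, all of them higher, and the other 21 of this class did not pass. In the limma comparison of log2(FPKM + 1), with p-values adjusted over all 11902 genes and a threshold of 0.05, 7 of the 37 members rose and none fell, against 1.31% of all genes that rose. The 7 were Ifit1, Ifit3 and Oasl2 among the antiviral effectors, Irf7 among the transcription factors, and Ifi27l2a, Ifi35 and Ifi44 among the other induced genes, and all 7 belong to the type I class of 28. At an unadjusted limma p under 0.05 stood 22 of the 37 members, beside 35% of all genes. Differences were positive for 36 of 37 members, with a median of 0.77 on the log2 scale (0.00 over all genes tested), and 26 members had every AngII library above every saline library, against 17.9% of all genes. The exception was Trim25, a ubiquitin ligase that activates an RNA sensor, which had every AngII library below every saline library, as had 15.8% of all genes, with a difference of -0.23 that did not pass the test.

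**Figure D1:**
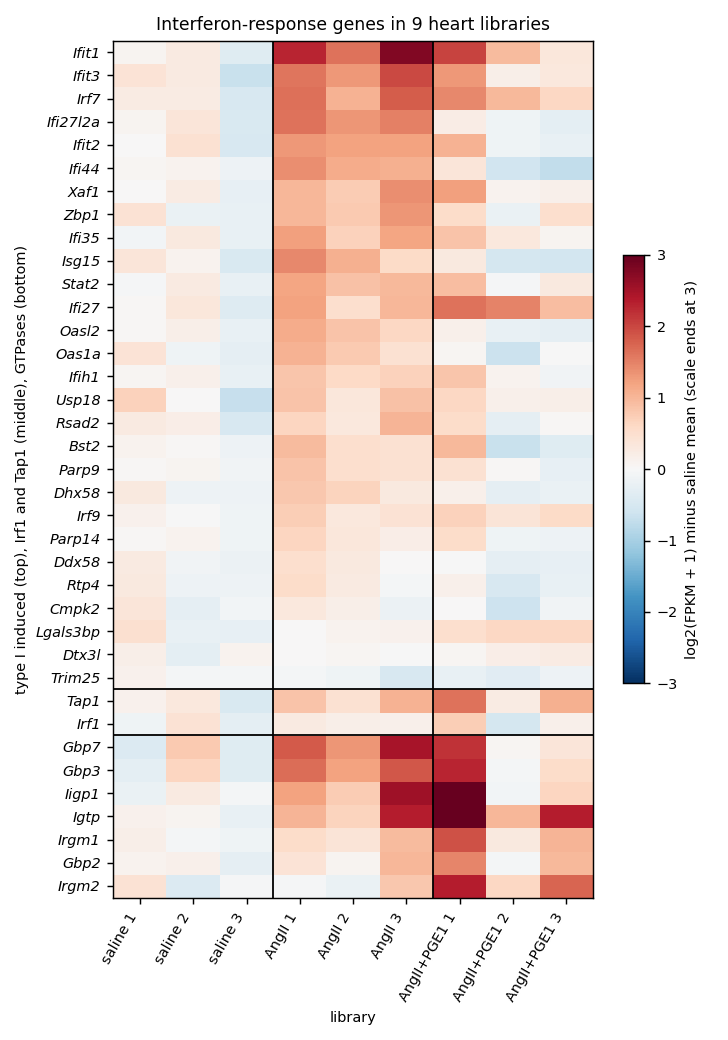
Level of each of the 37 members (rows) in each of the 9 libraries (columns), as log2(FPKM + 1) minus the mean of the 3 saline libraries, with type I induced genes on top, Irf1 and Tap1 in the middle and the GTPases at the bottom; the colour scale ends at 3. Most type I rows are red in the AngII columns and pale in AngII+PGE1 2 and 3, while 6 of the 7 GTPase rows are darkest in AngII+PGE1 1.

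Among the 8 antiviral effectors with a row, all 8 differences were positive and 3 passed the test. Ifit1, whose product binds foreign RNA and blocks its translation, stood at 3.06, 3.60 and 1.95 FPKM in saline, at 17.7, 10.7 and 24.9 in AngII, and at 14.4, 6.33 and 3.81 in AngII+PGE1. The AngII libraries lay above all saline libraries, and so did those of AngII+PGE1. Ifit1 had the largest difference of the 37 members, 2.23 ± 0.41 (SE) on the log2 scale (limma adjusted p = 0.0403). Its partner Ifit3 stood at 13.4, 12.2 and 5.85 FPKM in saline, 32.1, 25.8 and 42.2 in AngII, and 26.1, 11.3 and 12.5 in AngII+PGE1. The AngII and saline libraries of Ifit3 did not overlap, and the difference was 1.63 ± 0.36 (limma adjusted p = 0.0453). Of the positions of Ifit3 transcripts, 51.2% share a 50-base sequence with another gene, Ifit3b, so reads of the pair may have been split. Oasl2, a member of the oligoadenylate synthetase family of viral RNA sensors, stood at 16.8, 18.6 and 13.8 FPKM in saline, 36.2, 30.0 and 25.6 in AngII, and 18.1, 13.7 and 13.3 in AngII+PGE1. It was higher in each AngII library than in any of the other 6, and rose by 0.86 ± 0.19 with AngII (limma adjusted p = 0.0453). The other 5 effectors, Ifit2, Oas1a, Rsad2, Bst2 and Cmpk2, had differences from 0.11 (Cmpk2) to 1.23 (Ifit2) that did not pass. Oas1a shares 57.6% of its positions with Oas1g and Oas1b.

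The 3 transcription factors include Stat2 and Irf9, whose products belong to the complex that binds the ISRE. Irf7, the factor that amplifies type I interferon production, stood at 18.6, 18.5 and 10.7 FPKM in saline, 51.1, 32.8 and 57.5 in AngII, and 43.6, 31.1 and 24.6 in AngII+PGE1. Neither treated group overlapped saline, and Irf7 rose by 1.51 ± 0.29 with AngII (limma adjusted p = 0.0411). Stat2 stood at 7.70, 9.74 and 6.64 FPKM in saline, 19.4, 15.4 and 16.6 in AngII, and 16.1, 7.66 and 9.98 in AngII+PGE1. Its AngII libraries lay above all saline libraries, but its difference of 1.02 ± 0.24 missed the threshold (limma adjusted p = 0.0518). Irf9 had a smaller difference of 0.50 that did not pass.

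Of the 7 other induced genes, 3 rose. Ifi27l2a, a small interferon-induced membrane protein, had the highest level of these 3, at 58.0, 70.5 and 39.4 FPKM in saline, 169.5, 138 and 156 in AngII, and 63.3, 49.6 and 44.2 in AngII+PGE1. The AngII+PGE1 values lay within the saline range, and the AngII libraries stood above both groups. The mean was 56.0 ± 15.7 FPKM in saline and 154 ± 15.9 in AngII (SD, n = 3), a difference of 1.48 ± 0.22 on the log2 scale (limma adjusted p = 0.0332). Ifi44, an interferon-induced cytoplasmic protein, stood at 3.03, 3.17 and 2.49 FPKM in saline, 9.20, 7.35 and 7.10 in AngII, and 4.03, 1.63 and 1.34 in AngII+PGE1. The 3 AngII libraries were again the highest of the 9, and the difference was 1.19 ± 0.26 (limma adjusted p = 0.0467). Ifi35, which binds the interferon-induced protein Nmi, stood at 17.8, 23.4 and 16.0 FPKM in saline, 45.3, 30.9 and 43.9 in AngII, and 35.0, 23.8 and 20.1 in AngII+PGE1. It rose by 1.03 ± 0.24 with AngII (limma adjusted p = 0.0487), and its AngII+PGE1 libraries spread from the saline range into the AngII range. Ifi27, Xaf1, Rtp4 and Lgals3bp did not pass, with differences from 0.09 (Lgals3bp) to 1.05 (Xaf1).

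None of the 5 nucleic acid sensing genes and none of the 5 genes of ISG15 and of ubiquitin or ADP-ribose transfer passed the test, although 3 and 2 of them had an unadjusted limma p under 0.05, a threshold met by 35% of all genes. Zbp1, a sensor of left-handed nucleic acids that triggers necroptosis, stood at 3.69, 2.03 and 1.99 FPKM in saline, 5.92, 5.02 and 7.78 in AngII, and 4.14, 2.03 and 3.98 in AngII+PGE1. AngII did not overlap the other groups, and the difference was 1.04 ± 0.26 (limma adjusted p = 0.0562). Ifih1, a sensor of long double-stranded RNA, stood at 2.03, 2.26 and 1.51 FPKM in saline, 4.16, 3.38 and 3.68 in AngII, and 4.23, 2.12 and 1.70 in AngII+PGE1. Its AngII libraries lay above all saline libraries, with a difference of 0.70 ± 0.24 (limma adjusted p = 0.0863). Isg15, the ubiquitin-like modifier, stood at 13.9, 11.4 and 7.44 FPKM in saline, 30.8, 23.3 and 16.2 in AngII, and 13.2, 7.04 and 6.88 in AngII+PGE1. AngII was above both other groups without overlap, and the difference was 1.03 ± 0.31 (limma adjusted p = 0.0720). Usp18, the protease that removes ISG15 and restrains the type I receptor, stood at 7.53, 4.40 and 2.27 FPKM in saline, 8.58, 5.72 and 8.74 in AngII, and 7.19, 4.88 and 5.01 in AngII+PGE1. The Usp18 groups overlapped, with saline 1 above AngII 2.

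**Figure D2:**
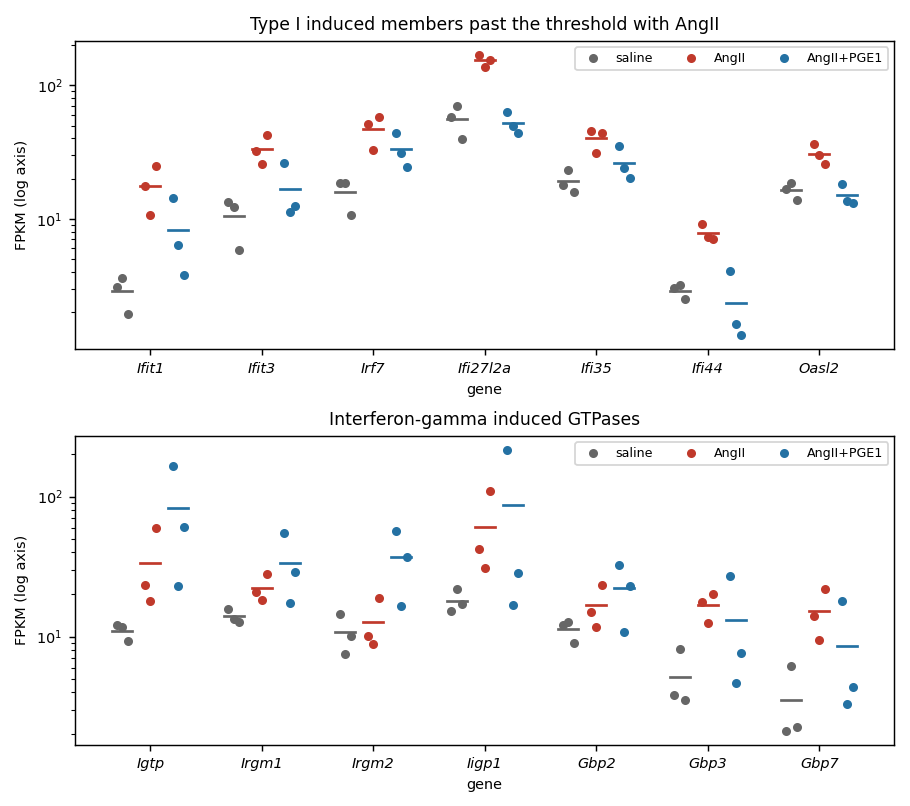
FPKM on a log axis of the 7 type I induced genes that rose with AngII (top) and of the 7 interferon-gamma induced GTPases (bottom), with a point per library in column order and a bar at the mean of the 3 libraries of a group. Ifi27l2a, Ifi44 and Oasl2 are higher in each AngII library than in any other library, while the AngII+PGE1 points of the GTPases spread widely, from 16.9 to 215.3 FPKM for Iigp1.

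The 7 GTPases also had positive differences with AngII, but with a wide spread between libraries, and none passed the test, with 2 of 7 at an unadjusted limma p under 0.05, near the 35% of all genes. Their median difference was 1.34 on the log2 scale, beside 0.73 for the 28 type I induced genes. Of the 7, 5 had every AngII library above every saline library, against 17.9% of all genes. Among the guanylate-binding proteins, Gbp7 stood at 2.13, 6.15 and 2.24 FPKM in saline, 14.0, 9.42 and 22.0 in AngII, and 17.8, 3.31 and 4.39 in AngII+PGE1. AngII lay above saline, and saline 2 was well above the other saline libraries. The difference was 1.88 ± 0.54 (limma adjusted p = 0.0692). Gbp3 stood at 3.79, 8.16 and 3.52 FPKM in saline, 17.6, 12.5 and 20.3 in AngII, and 27.3, 4.62 and 7.61 in AngII+PGE1. AngII again lay above saline and saline 2 was again the highest saline library, with a difference of 1.58 ± 0.51 (limma adjusted p = 0.0804). Gbp2, at 12.2, 12.6 and 9.06 FPKM in saline, 15.1, 11.8 and 23.2 in AngII, and 32.6, 10.7 and 23.0 in AngII+PGE1, overlapped between all groups and differed by 0.49 ± 0.36 with AngII (limma adjusted p = 0.342).

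Of the 4 immunity-related GTPases, Iigp1 is an effector that loads onto pathogen vacuoles, and Igtp, Irgm1 and Irgm2 are regulators that protect the cell's own membranes. Iigp1 stood at 15.3, 21.8 and 17.0 FPKM in saline, 42.5, 30.9 and 109 in AngII, and 215.3, 16.9 and 28.2 in AngII+PGE1. AngII lay above saline, and AngII 3 and AngII+PGE1 1 were far above the other libraries of their groups. The difference with AngII was 1.502 ± 0.78 (limma adjusted p = 0.191). Igtp stood at 12.1, 11.7 and 9.25 FPKM in saline, 23.4, 17.8 and 59.9 in AngII, and 165.0, 22.9 and 60.3 in AngII+PGE1. Both treated groups lay above saline, with a difference of 1.34 ± 0.62 for AngII (limma adjusted p = 0.149). Irgm1 stood at 15.7, 13.3 and 12.7 FPKM in saline, 20.9, 18.3 and 27.9 in AngII, and 55.2, 17.3 and 28.9 in AngII+PGE1, with AngII above saline and a difference of 0.63 ± 0.34 that did not pass (limma adjusted p = 0.203). Irgm2 stood at 14.4, 7.56 and 10.1 FPKM in saline, 10.03, 8.86 and 18.9 in AngII, and 56.7, 16.5 and 37.1 in AngII+PGE1. AngII overlapped saline for Irgm2, with a difference of 0.19 ± 0.42 (limma adjusted p = 0.767), and each AngII+PGE1 library was above every saline library. Igtp and Irgm2 share sequence with each other: 11.8% of the 50-base positions of Igtp and 7.83% of those of Irgm2 also occur in another gene, as do 12.7% of those of Gbp7, partly in Gbp3. Outside the GTPases, Rtp4 (11.6%), Ifi35 (10.4%), Dtx3l (8.09%), Parp9 (7.71%) and Ifit1 (7.14%) share positions too, so these values are less certain.

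The comparison of AngII with saline rested on few libraries. Without saline 2, 17 of the 37 members rose, beside 18% of all genes, and without AngII+PGE1 1, 19 rose, beside 7.28% of all genes. Members that rose numbered 2 without AngII+PGE1 3, beside 0.126% of all genes. They numbered 0 in limma when any of saline 1, saline 3, AngII 1, AngII 2, AngII 3 or AngII+PGE1 2 was left out. In those 6 fits 0% to 0.433% of all genes rose. At an unadjusted limma p under 0.05 stood 16 to 24 members and 16.8% to 31.5% of all genes in these fits. The difference of Irgm2 was -0.02 without saline 2. Without both saline 2 and AngII+PGE1 1, 23 of 37 members rose, 19 of them type I induced, together with the GTPases Iigp1, Gbp3 and Gbp7 and with Tap1, but 24.2% of all genes then rose too.

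Promoter sequences are shown for 5 members, 2 type I induced genes and 3 GTPases, since promoters hold the elements by which the classes are known to be driven. RefSeq windows on build GRCm38.p6, from 250 bases before to 50 after the start of a gene, matched 28 of the 39 members: 20 type I induced genes, 6 GTPases, and both Irf1 and Tap1. The windows lie at chr19:34640639-34640938 (plus strand) for Ifit1, chr4:156200769-156201068 (minus strand) for Isg15, chr11:58199306-58199605 (plus strand) for Igtp, chr11:58214727-58215026 (plus strand) for Irgm2 and chr3:142530086-142530385 (plus strand) for Gbp7. They are written 5′ to 3′ along the gene, with matches to the ISRE core (GAAA, any 2 bases, GAAA) or to the GAS core (TTCNNNGAA), on either strand, in capitals.
Ifit1: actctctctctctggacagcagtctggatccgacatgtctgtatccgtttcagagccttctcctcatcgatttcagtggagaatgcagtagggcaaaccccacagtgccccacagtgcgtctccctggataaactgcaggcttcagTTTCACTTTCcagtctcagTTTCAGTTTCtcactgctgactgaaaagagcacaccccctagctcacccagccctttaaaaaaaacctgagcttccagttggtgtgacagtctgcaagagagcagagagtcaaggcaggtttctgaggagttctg
Isg15: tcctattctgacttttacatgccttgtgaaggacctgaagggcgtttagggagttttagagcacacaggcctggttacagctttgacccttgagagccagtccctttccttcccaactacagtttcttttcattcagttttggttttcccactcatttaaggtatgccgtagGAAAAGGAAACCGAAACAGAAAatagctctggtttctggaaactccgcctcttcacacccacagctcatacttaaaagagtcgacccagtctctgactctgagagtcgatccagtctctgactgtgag
Igtp: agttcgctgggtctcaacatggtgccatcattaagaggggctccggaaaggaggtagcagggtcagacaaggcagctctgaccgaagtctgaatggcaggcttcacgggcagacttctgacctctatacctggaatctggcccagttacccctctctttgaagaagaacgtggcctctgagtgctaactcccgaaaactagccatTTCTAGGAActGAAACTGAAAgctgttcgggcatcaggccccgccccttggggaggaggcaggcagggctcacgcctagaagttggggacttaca
Irgm2: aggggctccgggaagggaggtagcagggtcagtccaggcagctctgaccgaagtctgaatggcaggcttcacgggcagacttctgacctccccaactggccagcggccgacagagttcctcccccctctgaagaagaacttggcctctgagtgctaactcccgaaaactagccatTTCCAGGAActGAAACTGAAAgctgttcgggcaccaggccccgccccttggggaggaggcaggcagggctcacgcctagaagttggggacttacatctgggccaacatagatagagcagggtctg
Gbp7: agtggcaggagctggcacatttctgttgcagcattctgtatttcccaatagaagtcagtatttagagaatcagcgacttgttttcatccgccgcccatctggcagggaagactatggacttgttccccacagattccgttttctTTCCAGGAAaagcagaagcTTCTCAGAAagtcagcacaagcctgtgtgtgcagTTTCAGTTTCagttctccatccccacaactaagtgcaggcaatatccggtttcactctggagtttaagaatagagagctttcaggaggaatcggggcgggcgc

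The Ifit1 window held 2 ISRE matches, 104 and 85 bases before the start, and no GAS match. The Isg15 window held 3 overlapping ISRE matches, 78, 72 and 66 bases before the start. In Igtp a GAS match 45 bases before the start was followed by an ISRE match 34 bases before it, and in Irgm2 the same pair lay 75 and 64 bases before the start, so the spacing from the first base of the GAS match to that of the ISRE match was 11 bases in both. Gbp7 held GAS matches 106 and 87 bases and an ISRE match 53 bases before the start. An ISRE match was found in 9 of 20 type I induced genes, in 6 of 6 GTPases and in neither Irf1 nor Tap1, and in 3.99% of all 27025 genes with a window. A GAS match was found in 4 of 20 type I induced genes, in 3 of 6 GTPases and in Irf1, and in 9.55% of all genes. Genes with a match to both numbered 2 type I induced genes and 3 GTPases, and made up 0.614% of all genes; in Bst2 the matches overlapped. The windows of Irf7, Ifi44 and Oasl2 held neither. A match is a description of letters in the window, not a binding site.

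Hearts given AngII with PGE1 had lower levels of Ifi27l2a and Ifi44 than hearts given AngII alone, and the other 26 type I induced genes and the 7 GTPases did not pass. In the limma comparison, 2 of the 37 members thus fell, both type I induced, and none rose, against 0.202% of all genes that fell. At an unadjusted limma p under 0.05 stood 16 of the 37 members, beside 33.6% of all genes. Differences were negative for 24 of the 28 type I induced genes, with a median of -0.55 on the log2 scale, and 10 of them had every AngII+PGE1 library below every AngII library, against 19.7% of all genes. Of the 7 GTPases, 4 differences were positive and 3 negative, with a median of 0.31, and none had groups apart in either direction. The median over all genes was -0.08, and became 0.04 when libraries were scaled by the median of ratios, a shift that moved the type I median to -0.42 and the GTPase median to 0.44.

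Ifi27l2a fell by 1.55 ± 0.22 (SE) on the log2 scale (limma adjusted p = 0.0395), from a mean of 154 ± 15.9 FPKM in AngII to 52.4 ± 9.86 in AngII+PGE1 (SD, n = 3), beside 56.0 ± 15.7 in saline. Ifi44 fell by 1.49 ± 0.26 (limma adjusted p = 0.0488), from 7.88 ± 1.15 to 2.33 ± 1.48 FPKM. Both genes had every AngII+PGE1 library below every AngII library. The other members with groups apart in this direction were Ifit2, Oasl2, Oas1a, Isg15, Zbp1, Parp9, Ddx58 and Dhx58. Of these, Oasl2 differed by -0.98 ± 0.19 (limma adjusted p = 0.0525), Oas1a by -0.96 ± 0.25 (limma adjusted p = 0.0624) and Isg15 by -1.30 ± 0.31 (limma adjusted p = 0.0590). The genes that had led the rise with AngII were less separated, and for each of them AngII+PGE1 1 lay within the AngII range: Ifit1 differed by -1.13 ± 0.41 (limma adjusted p = 0.102), Ifit3 by -1.03 ± 0.36 (limma adjusted p = 0.0942) and Irf7 by -0.50 ± 0.29 (limma adjusted p = 0.238). Dtx3l, a ubiquitin ligase and partner of Parp9, and the secreted glycoprotein Lgals3bp had every AngII+PGE1 library above every AngII library, as had 16.3% of all genes, and neither passed the test. This comparison shares its AngII libraries with that of AngII and saline, so the opposite signs of the pair are not independent of each other.

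Among the GTPases, Irgm2 had the largest positive difference, 1.39 ± 0.42 (limma adjusted p = 0.0779). Igtp differed by 1.04 ± 0.62 (limma adjusted p = 0.248), Irgm1 by 0.44 ± 0.34 (limma adjusted p = 0.363) and Gbp2 by 0.31 ± 0.36 (limma adjusted p = 0.555). The differences of Iigp1, Gbp3 and Gbp7 were negative, at -0.14, -0.65 and -1.01. None of the 7 passed, and only Irgm2 had an unadjusted limma p under 0.05. Without AngII+PGE1 1, Irgm2 differed by 0.999 ± 0.40 (limma adjusted p = 0.0839), Igtp by 0.33, Irgm1 by 0.02 and Gbp2 by -0.03, none of which passed. Iigp1 then differed by -1.22 ± 0.45 (limma adjusted p = 0.0678), and Gbp3 and Gbp7 fell by 1.33 and 1.67 (limma adjusted p = 0.0249 and 0.0225). The immunity-related GTPases had a median of 0.74 and the guanylate-binding proteins one of -0.65.

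**Figure D3:**
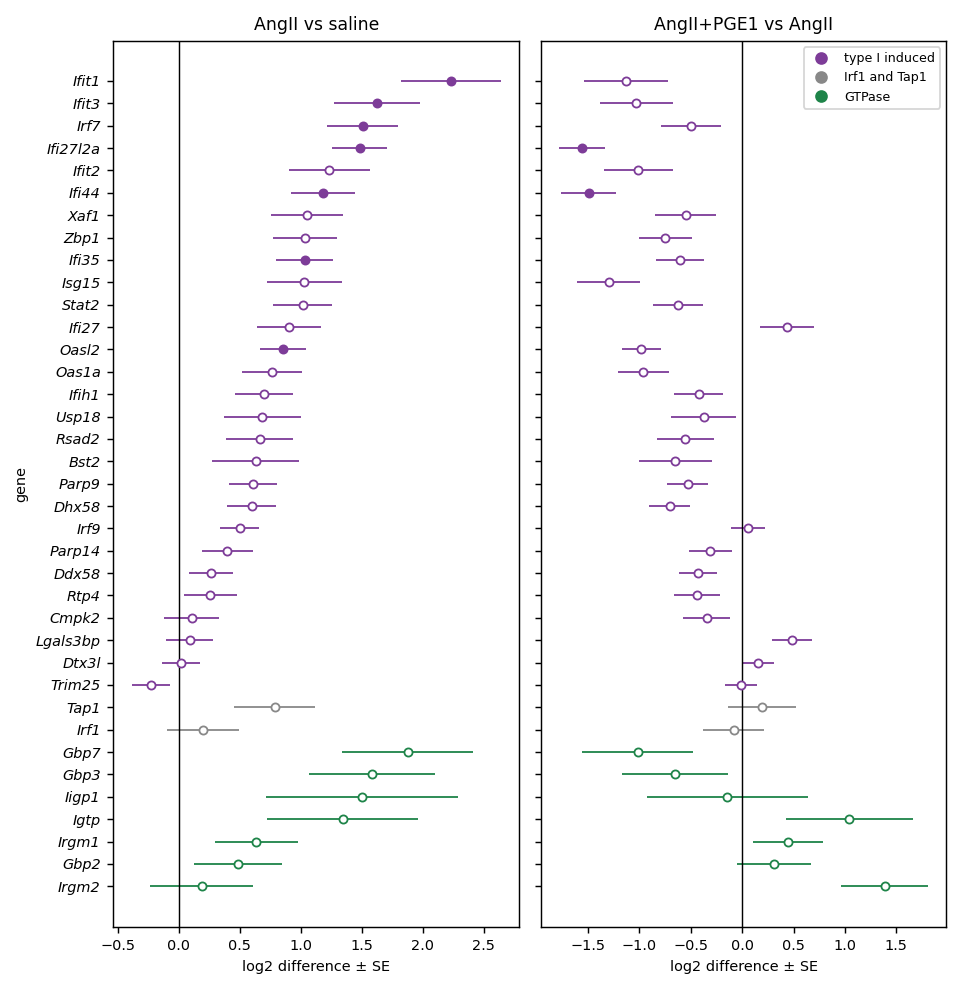
Difference in log2(FPKM + 1) with its SE for each member, AngII minus saline (left) and AngII+PGE1 minus AngII (right), in purple for type I induced genes, grey for Irf1 and Tap1 and green for GTPases; filled points passed the limma threshold. On the right 24 of the 28 purple points lie below 0, and Irgm2 and Igtp lie farthest above 0.

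This contrast depended on the library AngII+PGE1 1, and more members fell when that library was left out. Without it, 18 of 37 members fell relative to AngII, 16 of them type I induced, with Gbp3 and Gbp7, while 17.7% of all genes fell. The GTPase median became -0.03 in place of 0.31 while the type I median became -0.80. Without saline 2, 7 members fell, all type I induced, beside 11.4% of all genes, and Irgm2 rose, as did 9.2% of all genes. In limma 1 member fell when saline 3 or AngII 3 was left out, beside 0.076% and 0.567% of all genes. With any of saline 1, AngII 1, AngII 2, AngII+PGE1 2 or AngII+PGE1 3 left out, 0 members fell. In those 5 fits 0% to 0.221% of all genes fell. At an unadjusted limma p under 0.05 stood 9 to 16 members and 18.2% to 31% of all genes in these fits. Without both saline 2 and AngII+PGE1 1, 21 members fell, 19 of them type I induced, while 26.8% of all genes fell.

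Against saline, AngII+PGE1 hearts had a type I median near the saline level and a GTPase median above it. No member passed the limma threshold, which 2 of 11902 genes did (0.0168%), and 9 members had an unadjusted p under 0.05, beside 4.23% of all genes. The median difference was 0.14 for the type I class and 1.08 for the GTPases, and all 7 GTPase differences were positive. Every AngII+PGE1 library lay above every saline library for 8 members, against 2.3% of all genes: the type I induced Ifit1, Irf7, Irf9, Ifi27 and Lgals3bp, and the GTPases Igtp, Irgm1 and Irgm2. Trim25 lay wholly below saline, as did 7.89% of all genes. Igtp had the largest difference, 2.39 ± 0.62 (limma adjusted p = 0.890), followed by Irgm2 at 1.57 ± 0.42 (limma adjusted p = 0.920). Without AngII+PGE1 1 the GTPase median was 0.46 and the type I median -0.11, and without saline 2 they were 1.25 and 0.16. Igtp and Irgm2 differed by 1.68 and 1.19 without AngII+PGE1 1 and by 2.43 and 1.37 without saline 2, and Iigp1, which differed by 1.36 with every library, differed by 0.28 without AngII+PGE1 1.

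Ifi27, of the same family as Ifi27l2a, had its highest mean in AngII+PGE1. It stood at 26.4, 32.9 and 19.5 FPKM in saline, 61.1, 36.8 and 52.6 in AngII, and 81.6, 74.5 and 49.4 in AngII+PGE1. Neither treated group overlapped saline, and the treated groups overlapped each other. Its difference from saline was 0.91 ± 0.26 with AngII (limma adjusted p = 0.0692) and 1.35 ± 0.26 with AngII+PGE1 (limma adjusted p = 0.507). Lgals3bp stood at 53.1, 32.7 and 31.8 FPKM in saline, 38.3, 41.4 and 42.1 in AngII, and 54.0, 58.8 and 59.3 in AngII+PGE1, where its 3 highest values of the 9 lay.

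Set beside each other library by library, the class medians ran together in saline and in AngII 1 and 2, and apart in AngII 3, AngII+PGE1 1 and AngII+PGE1 3. Relative to the saline mean, the type I median was 0.97, 0.63 and 0.65 on the log2 scale in AngII and 0.55, -0.12 and -0.06 in AngII+PGE1. The GTPase median was 1.03, 0.66 and 1.87 in AngII and 2.28, 0.05 and 0.98 in AngII+PGE1. The GTPase median minus the type I median was -0.02 to 0.06 in saline, 0.06, 0.02 and 1.21 in AngII, and 1.73, 0.17 and 1.04 in AngII+PGE1, so the treated groups overlapped through AngII 3 and AngII+PGE1 2. No test was made between classes, since their members share the libraries and are not replicates. By the mean of log2(FPKM + 1), AngII was the highest group for 23 of 28 type I induced genes and for 3 of 7 GTPases, and AngII+PGE1 for 4 of each. Iigp1, highest in AngII by this measure, had a higher mean FPKM in AngII+PGE1 (86.8) than in AngII (60.7).

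**Figure D4:**
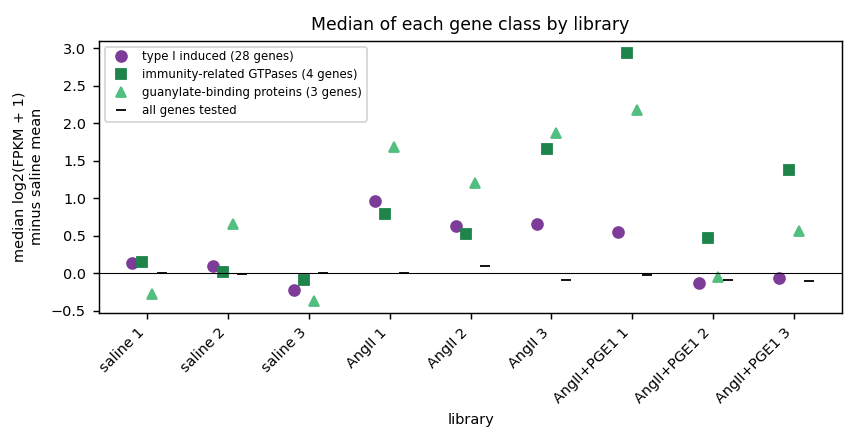
Median log2(FPKM + 1) relative to the saline mean in each library, for the 28 type I induced genes, the 4 immunity-related GTPases, the 3 guanylate-binding proteins and all genes tested. The immunity-related GTPases reach 2.93 in AngII+PGE1 1 and 1.38 in AngII+PGE1 3, where the type I median is 0.55 and -0.06.

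The highest of the 9 libraries was AngII 1 for 14 type I induced genes and AngII 3 for 7, whereas it was AngII+PGE1 1 for 6 of 7 GTPases. Within AngII+PGE1, library 1 had 17 of 28 type I induced genes above all saline libraries, and libraries 2 and 3 had 7 and 8, beside 24.0%, 13.4% and 12.8% of all genes. Below all AngII libraries lay 10, 23 and 22 of the 28, beside 27.7%, 43.2% and 43.7% of all genes. The GTPases stood above all AngII libraries in 6, 0 and 3 of 7 cases, beside 27.0%, 30.5% and 31.3% of all genes. They stood below all AngII libraries in 0, 5 and 3 of 7 cases, beside 27.7%, 43.2% and 43.7% of all genes. Medians of the immunity-related GTPases and of the guanylate-binding proteins differed in all 3 groups. In AngII+PGE1 they were 2.93 and 2.17 in library 1, 0.46 and -0.05 in library 2, and 1.38 and 0.56 in library 3. In AngII the guanylate-binding proteins were the higher, at 0.79 and 1.68, 0.52 and 1.21, and 1.65 and 1.87. In saline the medians were 0.15 and -0.28, 0.02 and 0.65, and -0.09 and -0.36.

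Neither Irf1 nor Tap1, which both interferon types induce, passed the limma test in any comparison, although Tap1 had an unadjusted p under 0.05 against saline in each treated group, as had 35% of all genes for AngII and 4.23% for AngII+PGE1. Irf1, an early-induced transcription factor, stood at 12.7, 19.2 and 11.1 FPKM in saline, 17.0, 15.9 and 15.7 in AngII, and 23.8, 9.33 and 15.7 in AngII+PGE1. Its groups overlapped throughout. Tap1, which carries peptides into the endoplasmic reticulum for class I presentation, stood at 7.75, 8.85 and 4.84 FPKM in saline, 13.4, 9.92 and 15.4 in AngII, and 23.6, 8.45 and 15.7 in AngII+PGE1. AngII lay above saline for Tap1, with a difference of 0.79 ± 0.33 that did not pass (limma adjusted p = 0.127).

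No interferon ligand or receptor gene passed the test. Of 23 interferon ligand genes sought, Ifnz had a row, at 0 to 0.42 FPKM, too low to be tested. The 6 receptor genes with a row were tested and none passed in any comparison with limma, although Ifnar1 and Ifngr2 had an unadjusted p under 0.05 both for AngII against saline and for AngII+PGE1 against AngII, 2 of 6 in each and near the 35% and 33.6% of all genes. Ifnar1, a chain of the type I receptor, stood at 9.37, 10.3 and 9.21 FPKM in saline, 14.2, 12.7 and 11.0 in AngII, and 9.24, 7.05 and 7.79 in AngII+PGE1, so that AngII lay above both other groups. It differed by 0.35 ± 0.15 with AngII (limma adjusted p = 0.133). Ifngr2, a chain of the interferon-gamma receptor, stood at 185.6, 80.5 and 189.6 FPKM in saline, 54.2, 94.99 and 65.2 in AngII, and 91.6, 160.0 and 149.9 in AngII+PGE1. The lowest saline value of Ifngr2 was in saline 2 and the lowest AngII+PGE1 value in AngII+PGE1 1, the libraries that stood apart over all genes. Ifnar2 ran from 33.4 to 54.6 FPKM, Ifngr1 from 25.8 to 40.0, Ifnlr1 from 1.27 to 2.13 and Il10rb from 81.1 to 120.7. Among the 8 negative regulators and the 9 sensing adaptors tested, none passed with AngII, with 1 and 2 at an unadjusted limma p under 0.05, below the 35% of all genes.

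Further genes of the pathway, outside the members, were counted in the same way. Of 44 further type I induced genes tested, 37 had positive differences with AngII, with a median of 0.54, and 2 rose, beside 1.31% of all genes. These were Oas1g, from 0.39, 0.84 and 0.74 FPKM in saline to 2.44, 1.44 and 1.89, by 0.82 (limma adjusted p = 0.0453), and Slfn8, from 0.75, 1.02 and 0.61 to 2.67, 3.09 and 1.93, by 0.98 (limma adjusted p = 0.0468). In AngII+PGE1 against AngII, 38 of the 44 differences were negative, with a median of -0.52, and none passed, with 24 of 44 at an unadjusted limma p under 0.05 beside 33.6% of all genes. Of 10 further interferon-gamma induced GTPases tested, all 10 differences were positive with AngII, with a median of 0.81, and 3 were positive and 7 negative in AngII+PGE1 against AngII, with a median of -0.11. None passed, with 3 and 1 of 10 at an unadjusted limma p under 0.05, beside 35% and 33.6% of all genes. Gbp6 stood at 9.12, 12.1 and 7.41 FPKM in saline, 24.7, 22.0 and 67.6 in AngII, and 86.1, 14.5 and 18.9 in AngII+PGE1, with the same high libraries as Iigp1. The 13 antigen-presentation and interferon-gamma target genes tested were all positive with AngII, with a median of 0.69, and none passed, with 5 of 13 at an unadjusted limma p under 0.05, near the 35% of all genes. The 15 with a row summed to 750 to 1188 FPKM in saline, 1384 to 1558 in AngII and 1143 to 2410 in AngII+PGE1.

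Markers of other cell types were measured beside these genes, and their part in the results was not tested. The 12 lymphocyte markers summed to 2.43 to 6.53 FPKM in saline, 6.28 to 9.66 in AngII and 5.13 to 10.6 in AngII+PGE1. Cd3d, Ms4a1, Klrb1c and Ncr1 were at 0 in at least 1 saline library. Of the 3 tested, Nkg7, a granule protein of cytotoxic cells, rose with AngII by 1.10 (limma adjusted p = 0.0375), from 0.52, 0.59 and 0.26 FPKM to 2.22, 2.43 and 1.73. Over all genes, 1.31% rose. In AngII+PGE1 the lymphocyte sum was highest in library 2 (10.6), the library of lowest GTPase median, and was 5.13 in library 1, the library of highest GTPase median. The 12 macrophage and monocyte markers summed to 364 to 569 FPKM in saline, 438 to 650 in AngII and 343 to 515 in AngII+PGE1, and none passed in any comparison with limma, with 5 of 12 at an unadjusted p under 0.05 for AngII against saline and 4 for AngII+PGE1 against AngII, near the shares of 35% and 33.6% over all genes. The 8 dendritic cell markers summed to 6.42 to 8.55 FPKM in saline, 8.91 to 11.8 in AngII and 5.13 to 7.93 in AngII+PGE1. Zbtb46 alone, at 2.98 to 6.93 FPKM, made up most of the sum in every library. Only 2 of the 8 were expressed enough to be tested. The 7 endothelial markers summed to 378 to 426 FPKM in saline, 202 to 350 in AngII and 226 to 303 in AngII+PGE1, so that both treated groups lay below saline. All 7 had negative differences against saline with AngII and with AngII+PGE1, as had 49.9% and 66.0% of all genes. None passed the threshold in limma. At an unadjusted limma p under 0.05 stood 3 and 4 of the 7, beside 35% and 4.23% of all genes. The 6 fibroblast markers summed to 375 to 426 FPKM in saline, 453 to 1399 in AngII and 345 to 404 in AngII+PGE1. With AngII 3 of the 6 differences were positive and 3 negative, and 1 marker rose in limma, beside 1.31% of all genes. Postn, which encodes the matrix protein periostin, was higher with AngII by 3.61 (limma adjusted p = 0.0453), from 8.87, 10.8 and 6.54 FPKM to 37.8, 455.9 and 89.9. The fibroblast sum was highest in AngII 2, where Dcn, Postn and Col1a1 stood at 512.9, 455.9 and 375.5 FPKM. That library had the lowest type I and GTPase medians of the 3 AngII libraries.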

How the data were processed

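The authors deposited 1 table of expression values for 16951 genes in 9 libraries; the values are FPKM, a unit read from the deposited values, because the header does not name it: sums of value times transcript length differed between libraries by a ratio of 1.10, plain sums by 1.26. Counts and depth are unknown. HISAT2 2.0.4, Bowtie2 2.2.5, RSEM 1.2.12 and mm9 are named, per the submitters' processing notes, with no role. The sources used here do not say whether strand was used. Columns were assigned to groups by name.

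The 11902 genes with 3 or more libraries at 1 FPKM entered 1 limma fit (3.58.1, R 4.3.3) of log2(FPKM + 1), with a mean per group, a variance trend, 6 residual degrees of freedom and Benjamini-Hochberg adjustment over all genes. The pseudocount of 1 understates changes of low genes. The fit was tested on simulated data. The members and lists were chosen with earlier results of these data known. Library values are given for members past the threshold, for the 2 largest AngII differences of each role group and for the 7 GTPases; Ifi27, Lgals3bp and Gbp6 were added after their values were seen. Shared 50-base positions were counted on GENCODE transcripts, on either strand.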

Additional observations from a re-analysis of the deposited data

How the results depend on the processing

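Members past the limma threshold numbered 7 for AngII against saline and 2 for AngII+PGE1 against AngII. Over all genes, 3.11% and 0.403% passed in either direction, and the shares of all genes below are of this kind. With the 2 compared groups alone the members numbered 12 and 5, beside 3.27% and 7.91% of all genes. With no filter they numbered 1 and 0, beside 0.519% and 0.0354% (16 members, and 28.8% of all genes, at an unadjusted p under 0.05 in the latter). Without saline 2 and AngII+PGE1 1 together they numbered 23 and 21, beside 49.1% and 44.9%. A minimum of 5 FPKM gave 8 and 1, beside 5.04% and 0.562% of all genes. A pseudocount of 0.1 gave 5 and 1, beside 2.78% and 0.353%, and robust limma 6 and 1, beside 2.79% and 0.386%. Leaving out 1 library gave 0 to 19 for AngII against saline and 0 to 18 for AngII+PGE1 against AngII, beside 0% to 38.1% and 0% to 26.9% of all genes. The titles' replicate numbers cannot be assigned to columns, so a replicate block was tried on the numbers in the column names, chosen after seeing the data: with 3 residual degrees of freedom it gave 0 and 0 (20 and 10 members, and 24.6% and 24.7% of all genes, at an unadjusted p under 0.05), as for every gene tested. Against saline, AngII+PGE1 gave 0 in each of these settings, with 6 to 14 members, and 2.1% to 11.4% of all genes, at an unadjusted p under 0.05. The causes were not tested. Quantile normalization gave 8 and 2, beside 4.98% and 0.454% of all genes, and median-ratio scaling 6 and 3, beside 3% and 2.82%. Each of the 6 class medians moved by less than the spread between libraries in these settings. That spread, 0.27 for the type I class and 0.75 for the GTPases, was taken over these same libraries, AngII+PGE1 1 included. Staying under it therefore does not show stability. For AngII+PGE1 against AngII, leaving out AngII+PGE1 1 changed the GTPase median from 0.31 to -0.03 and the type I median from -0.55 to -0.80. No called difference of a named member changed sign. With 3 libraries a group and no counts, precision at low FPKM is unknown.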
